A study of Mus musculus with 8 samples.

Results

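The 8 genes described here are part of the 23337 genes in a table of normalised read counts from embryonic mouse kidney. They are Sertad4, Mdfic, Fbxl7, AW551984, Tmtc1, Lhfpl2, Il13ra2 and Gm5127. They were picked because every mutant library lay below every control library and because they are less studied in the kidney. The mutant and control values therefore chose the genes and are given as a description, with no test. Over the whole set of genes 471 (2.02%) had all mutants below all controls, so the 8 are a selection from these.

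Whole kidneys were taken from embryos at E13.5, a stage of early nephron formation, on a mixed C57BL/6 background, with 4 libraries in each of 2 groups. Mutant kidneys were Foxd1Cre;Smo(flox/-), in which Cre recombinase expressed from Foxd1, a gene of renal stromal progenitors, removes the floxed copy of Smo, while the other copy is null in every cell. Control kidneys were Smo(flox/+), with a floxed and an intact copy of Smo and no Cre named in the label. Both groups share the floxed copy. The label does not say which Foxd1Cre allele was used, and Cre alleles inserted in Foxd1 also disrupt that gene. Whole-organ RNA was read, so fewer cells of a type and less RNA per cell cannot be told apart. The labels number samples 1 to 4 in each group without saying that they were separate embryos or litters.

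Smo encodes Smoothened, the membrane protein that relays the hedgehog signal to Gli transcription factors. Renal stroma is the mesenchyme that surrounds the forming nephrons and the branching ureteric bud, and it gives rise to interstitial cells, pericytes and mesangial cells. The 8 genes have no single pathway. Il13ra2 encodes a receptor that binds interleukin-13 with high affinity and is generally regarded as a decoy, because it competes with the signalling receptor. Lhfpl2 belongs to a family of small tetraspan membrane proteins and is needed for development of the lower reproductive tract in mice. Tmtc1 encodes an endoplasmic reticulum protein of a family that adds mannose to cadherins. Mdfic encodes a protein related to the MyoD family inhibitor, known as a transcriptional regulator and as an auxiliary subunit of PIEZO mechanosensitive channels. Sertad4 carries the SERTA domain shared with cell cycle regulators. Fbxl7 is an F-box protein, the part of an SCF ubiquitin ligase that binds substrates, and in Drosophila its counterpart acts with the cadherin Fat. AW551984 and Gm5127 carry placeholder names.

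Libraries held 10288191 to 13494079 reads in genes, and a normalised count of 1 stood for about 1 read. Smo, on chromosome 6 from 29735497 to 29761366 of GRCm38, lay between 509 and 553 in the mutants and between 2152 and 2294 in the controls (log2 fold change -2.06, SE 0.041, limma adjusted p = 1.87e-10), so each library matched its label. All 8 genes of a list that defines embryonic kidney, from Six2 and Wt1 to Calb1, were above the filter on low values. Of these, 7 had positive log2 fold changes and 1, Foxd1, a negative one. Pax2, a gene of nephron progenitors and ureteric bud, rose (0.32, limma adjusted p = 0.0332), while Six2, of nephron progenitors, had 0.35 (0.0693) and Ret, of ureteric bud tips, 0.33 (0.142). The 14 genes of a renal cortical stroma list summed to 24812 to 29895 normalised counts in mutants and to 31229 to 34244 in controls, without overlap, and Foxd1 itself stood at 593 ± 137 and 1477 ± 473 (SD, n = 4 each, log2 fold change -1.29, adjusted p = 0.0251). Foxd1 and Smoc2 (log2 fold change -1.15, adjusted p = 0.0325) were the 2 called genes of these 14, of which 10 had negative and 4 positive values, with a median of -0.18. Ecm1 (0.45, adjusted p = 0.245) and Crym (0.27, 0.582) had the highest values, and all mutants were above all controls for Ecm1. The part of these shifts in the results below was not tested. Skeletal muscle markers summed to 138 to 2162 in mutants and 151 to 3858 in controls, and both highest sums were in the libraries numbered 2. The next highest were 312.5 in mutant 4 and 670 in control 1. Macrophage markers summed to 495 to 856 in mutants and 692 to 1281 in controls. All 10 tested muscle markers (median log2 fold change -0.80) and all 12 macrophage markers (-0.44) had negative values, with 0 called in either list. The remaining marker lists held 0 called genes too. Their medians were -0.05 for ureteric and medullary mesenchyme, -0.11 for endothelium and -0.13 for neuron and Schwann cell. Those of liver and blood and of adrenal and gonad, the latter with 1 tested gene, were 0.015 and 0.135. The part of these in the results below was not tested either. Mutant 2 and control 4 held Y-linked transcripts, with summed counts of 3270.0 and 3504, against at most 2.87 in the other 6 libraries.

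Promoters are shown for 3 of the genes, because they carry the pair of contrasts that the sequences offer. In each, the stretch runs from 250 bases before the annotated start to 50 bases after it, from RefSeq on GRCm38.p6, printed along the gene's own strand. Il13ra2 and Gm5127 on chromosome X are the genes with the lowest levels and the largest differences, and capitals in them mark TATAAA or its reverse complement TTTATA, which overlap in 1 place. Tmtc1, with the largest difference among the well expressed genes, is the one whose promoter held CCACCCA, the core of the Gli binding site, and capitals mark it on the reverse strand as TGGGTGG.
Il13ra2 (chrX:147429143-147429442, minus strand): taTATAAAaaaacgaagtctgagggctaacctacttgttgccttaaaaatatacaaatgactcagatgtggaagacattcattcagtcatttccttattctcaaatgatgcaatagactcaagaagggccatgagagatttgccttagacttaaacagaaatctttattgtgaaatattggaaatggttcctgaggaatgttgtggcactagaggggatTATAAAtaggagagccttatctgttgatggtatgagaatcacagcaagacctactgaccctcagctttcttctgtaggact
Gm5127 (chrX:106582936-106583235, plus strand): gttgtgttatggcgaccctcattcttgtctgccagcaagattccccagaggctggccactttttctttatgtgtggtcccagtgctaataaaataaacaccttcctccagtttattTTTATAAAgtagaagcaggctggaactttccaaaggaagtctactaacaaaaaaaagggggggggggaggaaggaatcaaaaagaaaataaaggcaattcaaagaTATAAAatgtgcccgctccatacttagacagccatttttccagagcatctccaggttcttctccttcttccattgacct
Tmtc1 (chr6:148444303-148444602, minus strand): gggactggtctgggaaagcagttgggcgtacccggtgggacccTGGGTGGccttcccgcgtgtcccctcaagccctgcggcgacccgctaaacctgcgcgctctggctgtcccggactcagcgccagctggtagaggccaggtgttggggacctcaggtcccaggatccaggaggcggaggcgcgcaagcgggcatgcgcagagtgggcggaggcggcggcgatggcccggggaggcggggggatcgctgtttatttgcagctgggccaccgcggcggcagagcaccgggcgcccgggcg

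All 8 genes matched promoter entries, 11 promoters in all. The Gli core CCACCCA was found on either strand in 1 of the 11, that of Tmtc1, 207 bases before the start, and in 9.30% of all 32851 promoters. The longer Gli site GACCACCCA, which contains that core, was in 0 of the 11 and in 0.253% of all. The forkhead motif GTAAACA was in 0 of the 11 and in 3.65% of all, and the TEAD motif GGAATG in 1, that of Il13ra2, and in 14.7% of all. TATAAA stood 31 bases before the start of Il13ra2 and 29 bases before that of Gm5127, and 13.6% of all promoters held it on either strand. The Il13ra2 and Gm5127 promoters held 1 and 2 CpG pairs, against a median of 7 over all promoters. The Lhfpl2 promoter held 40 CpG, the first promoter of Sertad4 34, Fbxl7 31 and Tmtc1 30, while Mdfic held 8 and the AW551984 promoters 2 to 7. GGGCGG, the GC box, was in 35.7% of all promoters and in a promoter of each of the 6 genes other than Il13ra2 and Gm5127. A match describes letters in the window and does not show that a factor binds there.

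Il13ra2 had the largest difference of the 8. Its normalised counts were 2.87, 4.26, 4.48 and 1.07 in mutants 1 to 4, against 20.4, 17.6, 23.3 and 18.8 in controls 1 to 4. The groups were far apart, with the lowest control at 3.92 times the highest mutant. These values rest on 12 reads in all mutants together and 85 in all controls. The means were 3.17 ± 1.57 in mutants and 20.01 ± 2.45 in controls (SD, n = 4 each), a log2 fold change of -2.42 (SE 0.369) after adding 1 to each normalised count, so that the fold of so low a gene is understated. Il13ra2 lies on chromosome X from 147383478 to 147429192. In the 3 mutants and 3 controls without Y-linked transcripts it stood at 2.81 ± 1.70 and 20.4 ± 2.84, and in mutant 2 and control 4 at 4.26 and 18.8.

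Gm5127, annotated as protein coding on chromosome X from 106583170 to 106710557, was the other gene near the detection limit. It had 4.77, 2.13, 5.6 and 4.30 normalised counts in mutants 1 to 4, and 17.0, 12.4, 23.3 and 17.9 in controls 1 to 4. Control 2 was the lowest control and control 3 the highest, 1.87 times apart, while no mutant exceeded 5.6. The sums were 16 reads in mutants and 75 in controls. Means were 4.2 ± 1.48 in mutants and 17.6 ± 4.45 in controls (SD, n = 4 each, log2 fold change -1.86, SE 0.344). The range of Gm5127 overlapped that of Il13ra2 in both groups when set per kilobase of exon, so their order is not resolved.

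Lhfpl2 had the highest level and the smallest difference. It stood at 2220.2, 2302, 2216 and 2367 in mutants 1 to 4 and at 2929, 2798, 2695 and 2695.5 in controls 1 to 4. The highest mutant and the lowest control were 1.14 times apart, the narrowest gap of the 8. Means were 2276 ± 72.5 in mutants and 2779 ± 111 in controls (SD, n = 4 each), 81.9% of the control level (log2 fold change -0.29, SE 0.038). It lies on chromosome 13 from 94057152 to 94195410, 4.30 Mb from Foxd1. At the edge of the rule among tested genes, the highest mutant and the lowest control were both 871.0 for Bmpr2, just inside, and both 13.4 for Adam5, just outside.

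Tmtc1 had the largest difference among the 6 genes with more than 100 normalised counts in every library. It stood at 115, 116, 118 and 139 in mutants 1 to 4 and at 333, 295, 323 and 173 in controls 1 to 4. Control 4 lay far below the other controls, yet above all mutants. Means were 122 ± 11.3 in mutants and 281 ± 73.8 in controls (SD, n = 4 each, log2 fold change -1.16, SE 0.180). Without mutant 2 and control 4, the libraries with Y-linked transcripts, they were 124 ± 13.1 and 317 ± 20.04 (SD, n = 3 each), a log2 difference of -1.36, and between those 2 libraries the log2 difference was -0.57. Tmtc1 spans 212 kb of chromosome 6, from 148232430 to 148444770, 119 Mb from Smo.

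The 3 genes that encode regulators inside the cell differed by similar amounts. Mdfic stood at 286, 289, 269 and 305 in mutants 1 to 4 and at 422, 417, 475 and 393 in controls 1 to 4. Its means were 287 ± 14.8 in mutants and 427 ± 34.5 in controls (SD, n = 4 each, log2 fold change -0.57, SE 0.070). Mdfic is on chromosome 6 from 15720566 to 15802169, 14.0 Mb from Smo. Sertad4, on chromosome 1 from 192844469 to 192855752, stood at 338, 387, 379 and 375 in mutants 1 to 4, against 521, 563, 542.5 and 494.5 in controls 1 to 4. The tightest group of these was the mutant group of Mdfic, and in both genes control 4 was the lowest control. Sertad4 averaged 369.5 ± 21.5 in mutants and 530.5 ± 29.4 in controls (SD, n = 4 each, log2 fold change -0.52, SE 0.062). Exons of Sertad4 overlap 138 bases of Gm15867 on the opposite strand. Fbxl7, which spans 355 kb of chromosome 15 from 26540454 to 26895564, stood at 287, 287.5, 338 and 337 in mutants 1 to 4 and at 434, 464, 532 and 499 in controls 1 to 4. Mutants 3 and 4 were alike and above mutants 1 and 2. Fbxl7 averaged 313 ± 29.0 in mutants and 482 ± 42.5 in controls (SD, n = 4 each, log2 fold change -0.62, SE 0.082).

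AW551984 lies on chromosome 9 from 39587396 to 39604774. It stood at 691, 692, 686 and 839.9 in mutants 1 to 4, against 982, 1077, 1094 and 1060.5 in controls 1 to 4. Mutant 4 was well above the other mutants, which lay close together. Means were 727 ± 75.1 in mutants and 1053 ± 49.7 in controls (SD, n = 4 each, log2 fold change -0.54, SE 0.067). Its longest open reading frame, of 804 codons, was closest to that of Vwa5a, with 64.3% identity over 809 aligned positions, a gene 844 kb away on chromosome 9. Vwa5a stood at 389 ± 28.3 in mutants and 406 ± 33.02 in controls (log2 fold change -0.06, limma adjusted p = 0.900). The other tested gene of the VWA5 family list, Vwa5b2, had the smaller p of the pair, at 9.94 ± 3.05 in mutants and 12.9 ± 2.95 in controls (SD, n = 4 each, -0.37, limma adjusted p = 0.827). Parp4, matched by sequence but not on that list, had 25.4% identity over 623 positions (log2 fold change 0.03, limma adjusted p = 0.964). The open reading frame of Gm5127, of 212 codons, had a single match, to 122 positions of Lpar4 at 27.0% identity.

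**Figure D1:**
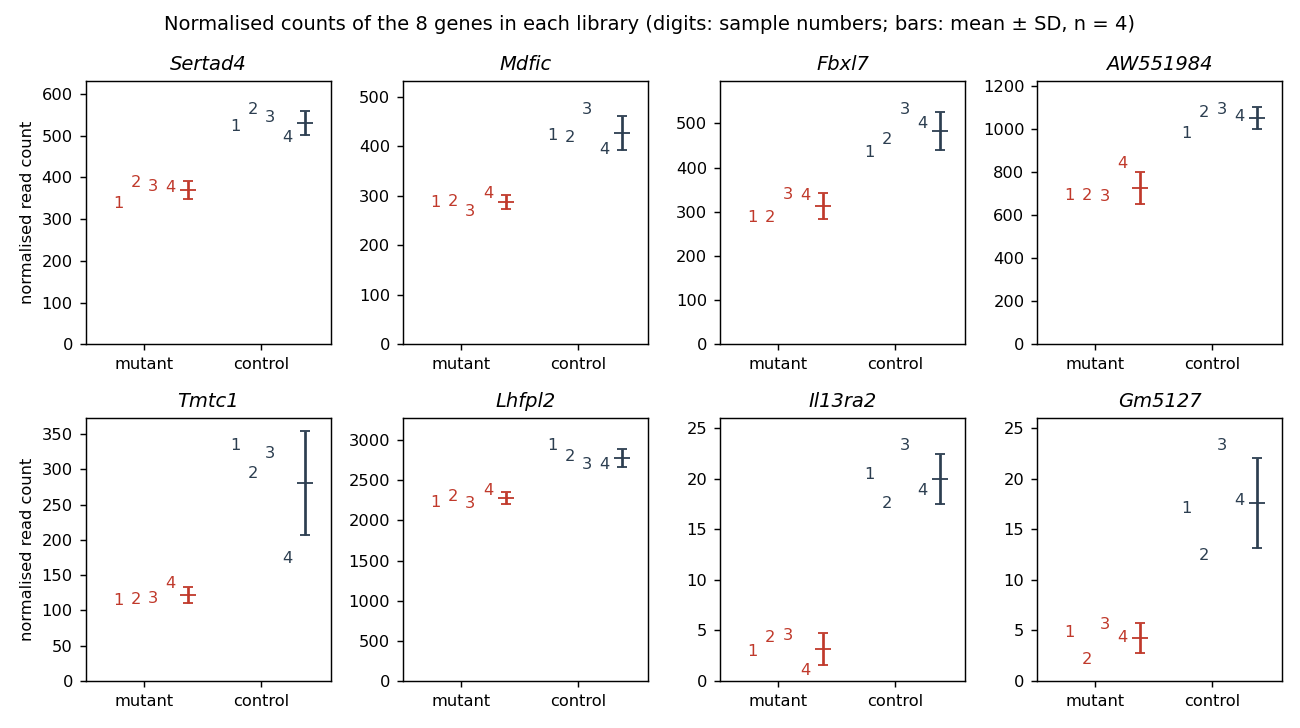
Normalised read counts (vertical axes, linear from 0) of the 8 genes in mutant and control kidneys. Digits are the samples' numbers and bars are mean ± SD (n = 4). In every panel the mutants lie below the controls, which is how the genes were chosen, and control 4 of Tmtc1, at 173, comes nearest to its mutants in that panel.

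Across the 8 genes the median log2 fold change was -0.60, with a range from -2.42 to -0.29, against 0.0037 over all 13692 genes tested. All 8 passed the filter of a mean of 10 normalised counts over the 8 libraries, Il13ra2 and Gm5127 only through the controls. No test is given for them, since the rule used the contrast. Of all genes tested limma called 0.57%, 0.446% lower and 0.124% higher in mutants, while 3.0% had all mutants below and 2.31% all mutants above all controls. Libraries did not hold 1 order across the 8 genes. Control 3 was the highest control in 5 genes and control 4 in 0, and mutant 4 was the highest mutant in 4. After subtracting each group's own mean of log2 values, 18 of the 28 pairs of genes were positively correlated over the 8 libraries, with a median r of 0.15 and a range from -0.82 (AW551984 with Il13ra2) to 0.68 (Mdfic with Tmtc1). These points share libraries and their depth, and the values are a description. The lowest r includes mutant 4, where Il13ra2 rested on 1 read and AW551984, at 839.9, was above the other mutants.

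Levels are set per kilobase of exon so that genes can be compared, as normalised counts per kilobase (mean ± SD, n = 4). In the mutants they were 270.5 ± 8.61 for Lhfpl2, 120 ± 12.4 for AW551984, 96.0 ± 5.6 for Sertad4, 47.9 ± 4.45 for Fbxl7, 38.6 ± 2.00 for Mdfic, 14.2 ± 1.32 for Tmtc1, 1.39 ± 0.688 for Il13ra2 and 1.95 ± 0.689 for Gm5127. In the controls they were 330.3 ± 13.2 for Lhfpl2, 173 ± 8.17 for AW551984, 138 ± 7.65 for Sertad4, 73.9 ± 6.52 for Fbxl7, 57.4 ± 4.64 for Mdfic, 32.8 ± 8.60 for Tmtc1, 8.77 ± 1.08 for Il13ra2 and 8.20 ± 2.07 for Gm5127. The order was the same in both groups down to Tmtc1, and neighbours in it were apart in every library except Il13ra2 and Gm5127, whose ranges overlapped. Levels ranked from the 85.8th percentile of tested genes for Lhfpl2 down to the 6.43rd for Il13ra2 and the 6.40th for Gm5127.

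**Figure D2:**
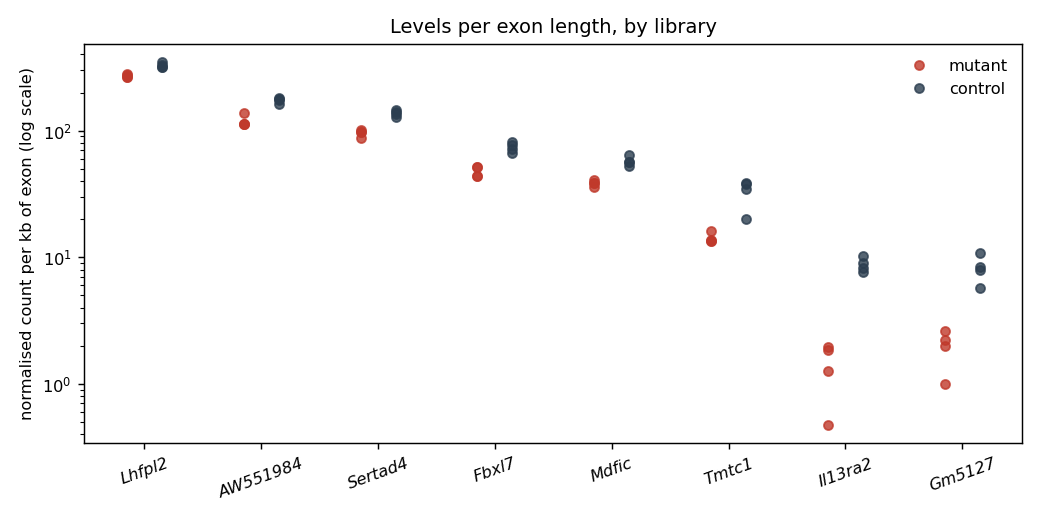
Levels of the 8 genes as normalised counts per kilobase of exon on a log scale, ordered by the control mean, with 1 point for each library. Lhfpl2 lies between 263 and 348, while Il13ra2 and Gm5127 lie at 10.8 or below and overlap each other.

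The direction of all 8 genes was the same among the 6 libraries without Y-linked transcripts and between the 2 libraries with them. The rule that chose the genes fixes this direction for any subset of the libraries, so only the sizes are described. The size differed most for Gm5127 and Tmtc1. Tmtc1 is given above, and Gm5127 had log2 differences of -1.62 without and -2.59 with Y-linked transcripts. With 1 library left out in turn, in the fits that kept the gene above the filter, Tmtc1 ranged from -1.38 to -1.06, Il13ra2 from -2.59 to -2.12 and Gm5127 from -2.01 to -1.64. The other 5 genes moved by less than 0.1 from their values with all libraries.

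**Figure D3:**
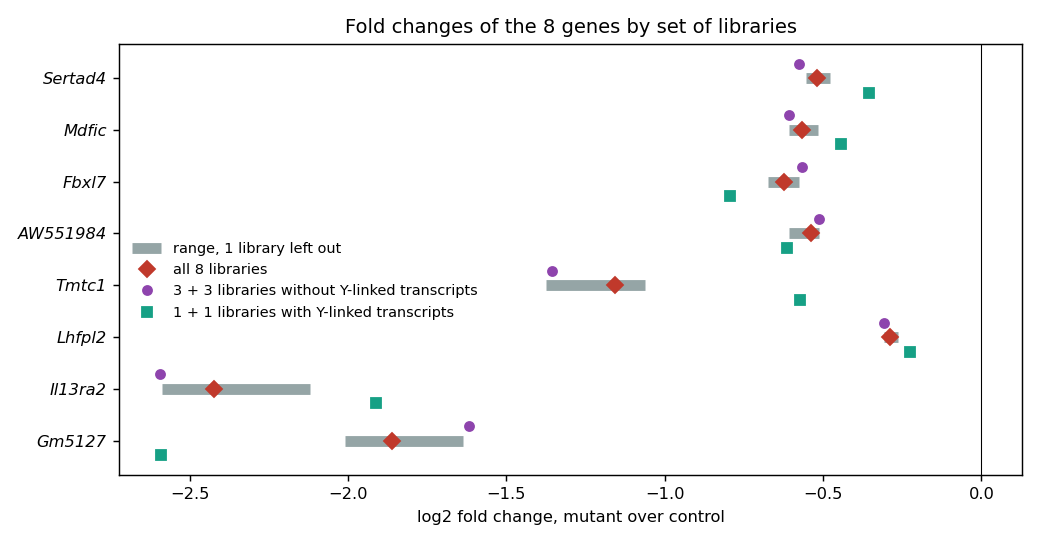
Log2 fold change of mutant over control (horizontal axis) of the 8 genes with all 8 libraries (diamonds), with 1 library left out (grey bars, lowest to highest), in the 6 libraries without Y-linked transcripts (circles) and between mutant 2 and control 4, which hold them (squares). All points lie below 0, which the rule that chose the genes fixes. Each of the 8 squares, from 1 library per group, lies outside its gene's grey bar. Those of Sertad4, Mdfic, Tmtc1 (-0.57), Lhfpl2 and Il13ra2 lie to the right of it, and those of Fbxl7, AW551984 and Gm5127 to the left.

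Relatives and partners of the 8 genes were not chosen by the same rule, so they were tested. Of 66 such genes 65 were in the table and 59 were tested. Limma called Tmtc4 and Piezo2 lower in mutant kidneys and none higher. That is 3.39% of the 59, against 0.57% of all tested genes, from 2 genes only. The lists were drawn up with earlier results of these data known, so this share is a description and not independent support. An unadjusted p under 0.05 was reached by 8 of the 59, against 8.70% of all genes, and the median log2 fold change was -0.02.

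Tmtc4, the closest relative of Tmtc1 by open reading frame with 36.1% identity over 441 positions, also encodes a mannosyltransferase of the endoplasmic reticulum. It stood at 718, 596, 625 and 730.3 in mutants 1 to 4 and at 923, 873.5, 1093 and 1206 in controls 1 to 4. All mutants were below all controls. Means were 667.5 ± 66.8 in mutants and 1024 ± 154 in controls (SD, n = 4 each, log2 fold change -0.61, SE 0.101, limma adjusted p = 0.0265). Without Y-linked libraries it was still called (log2 fold change -0.47, adjusted p = 0.0354). The call was lost without mutant 1 (adjusted p = 0.0658), mutant 2 (0.0922), mutant 3 (0.112) or control 3 (0.118). Exons of Tmtc4, on chromosome 14 from 122918971 to 122983285, overlap 1582 bases of 4930594M22Rik on the opposite strand, and counting may not have used strand. In the rest of its list the log2 fold changes were 0.22 for Tmtc2 (adjusted p = 0.280), then Tmtc3 -0.07 (0.744), Tmem260 -0.23 (0.637), Pomt1 -0.12 (0.814) and Pomt2 0.13 (0.426).

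Piezo2 encodes a mechanically gated cation channel that MDFIC binds, and it is listed under the older symbol Fam38b. It stood at 1007, 1143, 1092 and 1301 in mutants 1 to 4 and at 1471, 1583, 1478 and 1395 in controls 1 to 4. The groups did not overlap. Means were 1136 ± 123 in mutants and 1482 ± 77.0 in controls (SD, n = 4 each, log2 fold change -0.39, SE 0.070, limma adjusted p = 0.0391). Leaving out mutant 1 (adjusted p = 0.101), mutant 2 (0.102), mutant 3 (0.150), control 1 (0.0906), control 2 (0.116) or control 3 (0.140) ended the call of Fam38b. Piezo1, the related channel listed as Fam38a, stood at 838 ± 38.6 in mutants and 930.2 ± 29.7 in controls (log2 fold change -0.15, adjusted p = 0.247). Mdfi, the closest relative of Mdfic, was at -0.21 on the log2 scale (adjusted p = 0.613), Lef1, a transcription factor of Wnt signalling, -0.25 (0.377) and the related factor gene Tcf7l1 0.18 (0.123). The values of Ccnt1 and Axin1 were -0.01 and 0.00.

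The other lists held no called gene by limma or edgeR. The 4 relatives of Sertad4 had log2 fold changes from -0.10 to -0.02, and Sertad2 had the smallest p (-0.07, adjusted p = 0.814). Among 19 tested F-box genes with leucine-rich repeats, 9 had negative and 10 positive fold changes, and Fbxl6 had the smallest p (-0.17, adjusted p = 0.527). Of the SCF core and FBXL7 substrate genes, Skp1a had 0.06 (adjusted p = 0.631), Aurka -0.04 and Birc5 0.01. Among the 6 tested Fat and Dachsous genes Fat4 had the smallest p (-0.23, adjusted p = 0.717). The tested relatives of Lhfpl2 were Lhfp (0.01), Lhfpl1 (-0.06) and Lhfpl4 (-0.23, adjusted p = 0.894).

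In the interleukin-4 and interleukin-13 pathway, Il13ra1, which encodes a chain of the signalling receptor, stood at 358 ± 34.3 in mutants and 375 ± 57.5 in controls (SD, n = 4 each, log2 fold change -0.06, limma adjusted p = 0.941). The log2 fold change was -0.02 for Il4ra (adjusted p = 0.973) and -0.34 for Il2rg, the common gamma chain and the gene with the smallest p of this list (0.644). The ligand gene Il13 had 0 reads in every mutant, which allows up to 3 reads per library, and at most 1 read in any control. Il4 had at most 1 read in any library.

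**Figure D4:**
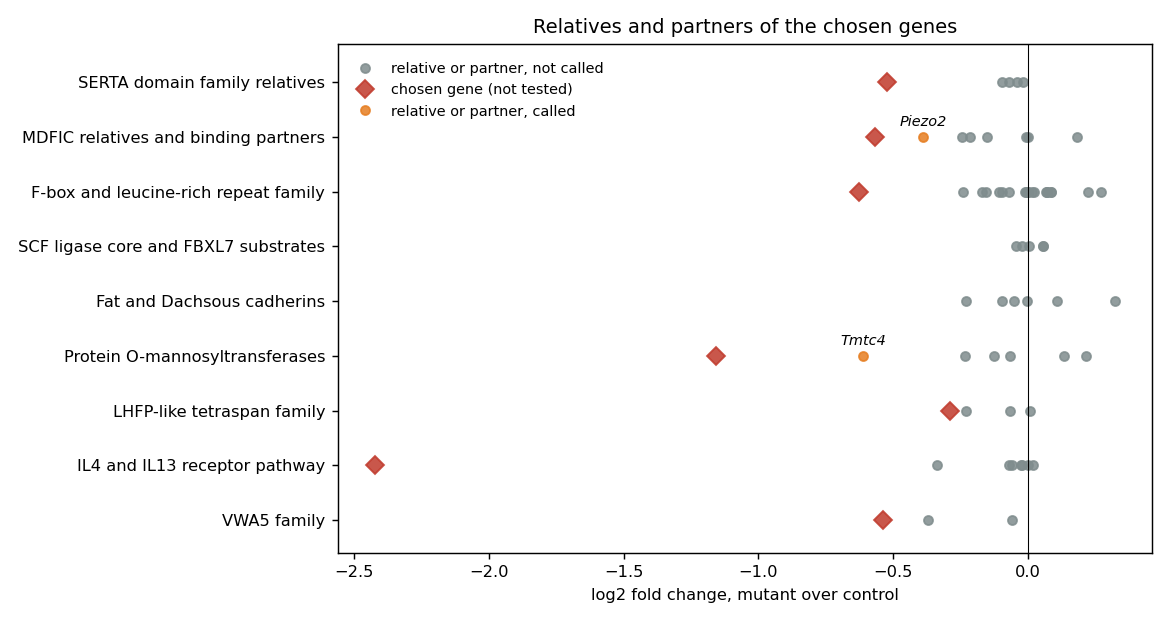
Log2 fold change of mutant over control (horizontal axis) of tested relatives and partners in 9 lists (rows), grey where not called and orange where called by limma at an adjusted p under 0.05, with the chosen genes as red diamonds. Tmtc4 at -0.61 and Piezo2 at -0.39 are the called ones, and Lhfpl2 at -0.29 lies nearest to its relatives.

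Position was not part of the choice either. The nearest 2 tested genes on each side of every member gave 32 neighbours, at 0.0 to 2969 kb. Limma called 0 of these 32 and edgeR 0, DESeq2 called 1 (Arsb), and 5 had an unadjusted p under 0.05, against 8.70% of all tested genes. Their median log2 fold change was -0.03, with 20 negative and 12 positive, and all mutants were below all controls in 2 (Arsb and Lpar4) and above in 1 (Tes), against 3.0% and 2.31% of all tested genes. Foxp2, a forkhead transcription factor gene 279 kb before Mdfic, stood at 237 ± 44.2 in mutants and 322 ± 32.7 in controls (SD, n = 4 each, log2 fold change -0.45, SE 0.121, limma adjusted p = 0.170). The nearest genes to the others were Syt14 for Sertad4 (log2 fold change 0.23), March11 for Fbxl7 (0.16), Zfp202 for AW551984 (0.04), Rps4y2 within the span of Tmtc1 (-0.03), Scamp1 for Lhfpl2 (-0.02), Lrch2 for Il13ra2 (-0.09) and Cysltr1 at the span of Gm5127 (0.03), with adjusted p from 0.791 to 0.971.

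Arsb, which encodes the lysosomal enzyme arylsulfatase B and lies 114 kb before Lhfpl2, is named after its values were seen. It stood at 416, 518, 422 and 581 in mutants 1 to 4 and at 646.5, 708, 620.0 and 683 in controls 1 to 4. The groups did not overlap, and means were 484 ± 79.4 in mutants and 664 ± 38.9 in controls (SD, n = 4 each, log2 fold change -0.47, SE 0.099, limma adjusted p = 0.0732). Exons of Arsb overlap 463 bases of Gm47210 and 1948 bases of Gm26527 on the opposite strand, so the doubt on strand holds here too. Without mutant 4 the adjusted p was 0.0154, and with other libraries left out it reached 0.231. Foxp2 was called without mutant 4 as well (adjusted p = 0.0262).

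**Figure D5:**
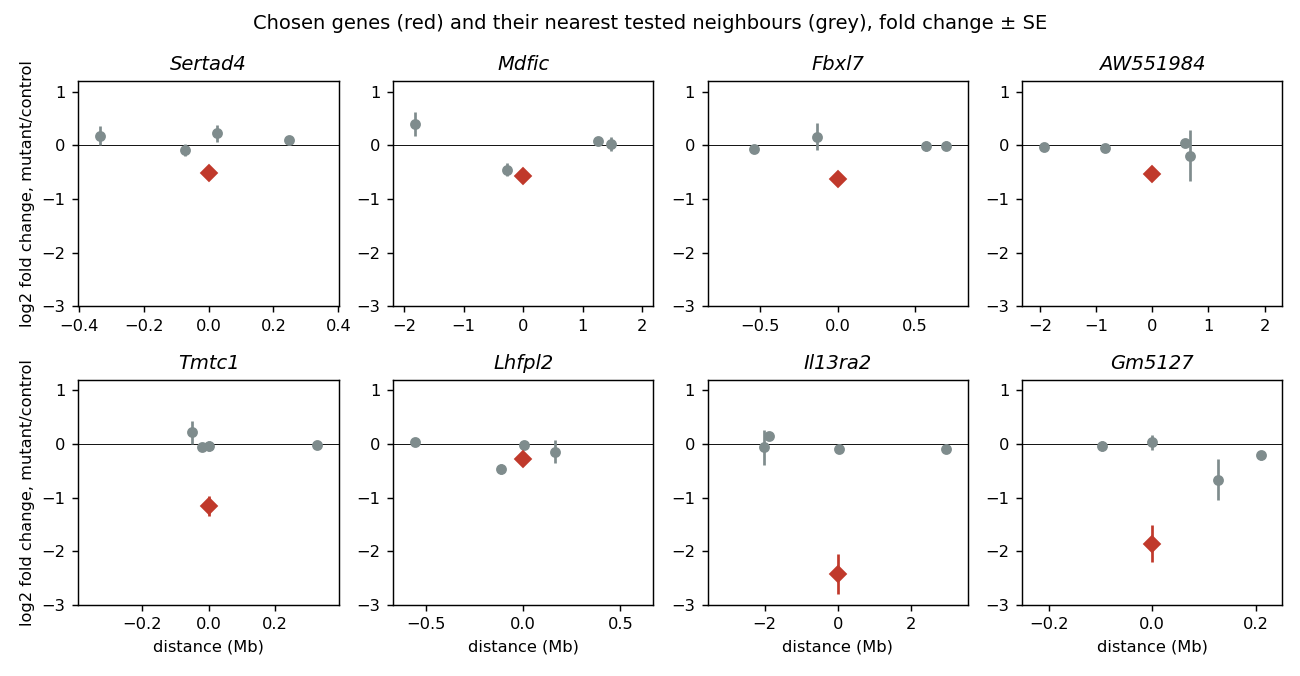
Log2 fold change of mutant over control ± SE (vertical axes) of each chosen gene (red diamond) and its 4 nearest tested neighbours (grey), against distance from the gene in Mb (horizontal axes, 0 where spans overlap). Of the neighbours, 4 lie farthest from 0: Foxp2 (-0.45) and 1110019D14Rik (0.40, adjusted p = 0.705) beside Mdfic, Arsb (-0.47) beside Lhfpl2 and Zcchc5 (-0.67, adjusted p = 0.711) beside Gm5127.

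Patterns across libraries gave no shared companion. For each gene the 2 most similar genes were taken among 11461 with a mean of at least 50, by Pearson's r of group-centred log2 values over the 8 libraries. These r ran from 0.963 to 0.986, and the 16 companions were all different. Each was picked as the highest among 11461 genes over only 8 libraries, so an r of this size is no evidence of a link. For Il13ra2 and Gm5127 the mutant values rest on 1 to 5 reads per library, so counting error enters their patterns. Sertad4 was most like Plagl1, an imprinted zinc finger gene (r = 0.986), and Lekr1 (0.973). Mdfic was most like Usp35 and Rap2a, Fbxl7 like Mybl1 and Zik1, AW551984 like Mgat3 and Cnih2, and Tmtc1 like Tmem9 and Kdelr1. Lhfpl2 was most like Ints9 and Mtss1, Il13ra2 like Sclt1 and Smarcd1, and Gm5127 like Morn4 and Tbcd. Limma adjusted p of these companions ranged from 0.0635 for Plagl1 (log2 fold change -0.46) to 0.982 for Kdelr1.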

How the data were processed

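Poly(A)-selected RNA of whole kidneys was sequenced from 4 mutant and 4 control samples. TopHat2 2.0.12, HTSeq and DESeq2 1.4.5 with build mm10 (GRCm38) are named in the submitters' processing notes. The authors deposited 1 table whose signal values are reads per gene after division by a library's size factor. Dividing each library's values by its smallest positive value, taken as 1 read, gave whole reads for 100% of values (within 0.01 read). These reads served for the alternatives and for the read counts given. The authors' deposited p-values, ratios (fold change) and log2 fold changes are not used here.

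Values were log2-transformed after adding 1. The 13692 genes averaging 10 or more entered limma 3.58.1 (R 4.3.3, trend on mean level), two-sided, with a genotype term alone, with Benjamini-Hochberg adjustment over all genes, and called at 0.05. The fit was tested on simulated data. edgeR 4.0.16 (quasi-likelihood) and DESeq2 1.42.0 were run on recovered reads as alternatives, beside other pseudocounts, filters and scalings and sets of libraries. Exon lengths and overlaps came from GENCODE vM21 and positions and promoters from RefSeq (GRCm38.p6), with 23086 of 23337 genes found under their symbol or a synonym. Open reading frames were compared with BLAST 2.17.0.

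By rule, all members were named, and each called gene or else the smallest p of every list of relatives or partners. Each member's nearest tested neighbour and its 2 most similar genes were named too. Other relatives, partners, neighbours and markers are named outside this rule, Arsb after its values were seen. Members and lists were chosen with earlier results of these data known. No library was a copy of another in its group: chi-square over degrees of freedom was 2.89 to 11.0. The p-values measure the spread between these samples, which may be technical, and read totals limit counting error only.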

Additional observations from a re-analysis of the deposited data

Results flagged for a closer look

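A check for a single outlying library in 28 groups of 4 values picked 2 groups; by chance about 1 in 20 would be picked, or 1.4. Both were in mutant 4. AW551984 was at 839.9 there, against 686 to 692 in the other mutants. Tmtc1 was at 138.5 there, against 115 to 118 in the other mutants. In both genes mutant 4 stayed below every control.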

How the results depend on the processing

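The 8 fold changes kept their direction in all 19 alternatives that gave a value. Wherever the deposited values or a subset of their libraries were refitted, the rule that chose the genes fixes that direction, so it is no separate support. Of 147 values, 145 moved by less than the spread between replicates. The exceptions came with a pseudocount of 5, at -1.63 for Il13ra2 and -1.29 for Gm5127. A filter of a mean of 50 left both genes out. The median over the 8 genes stayed between -0.64 and -0.52. The number of genes called, 78 by limma, was 214 by DESeq2, 232 with the sample number as a replicate block, 2 without the libraries numbered 2, 146 without the libraries with Y-linked transcripts, and 18 to 183 with 1 library left out. Correlations of same-numbered samples were 0.325, 0.287 and 0.294 for numbers 1 to 3 and 0.064 for number 4. Those of differently numbered samples ran from -0.325 to 0.154, so samples 1 to 3 deviated together with their own number the most. The labels do not say that the numbers pair samples, and the main fit did not take them as pairs. What the numbers share was not tested. Of relatives and partners, 2 were called by limma and 4 with the replicate block. The block added Fat4, lower in mutants, and Tmtc2, higher in mutants. Without the libraries numbered 2 the count was 0, and with 1 library left out it was 0 to 2. Of neighbours, 0 were called by limma, 1 by DESeq2, 1 with the replicate block, 1 without the Y-linked libraries and 0 to 2 with 1 library left out. The cause was not tested. Depth limits Il13ra2 and Gm5127, whose mutant values rest on 1 to 5 reads per library.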
